A study of Homo sapiens with 8 samples.

Results

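A set of 7 core genes of the RAS-RAF-MEK-ERK pathway was followed through 8 arrays of A375, a human melanoma cell line with an activating BRAF mutation. They were ARAF, MAP2K1, MAP2K2, MAPK3, NRAS, HRAS and KSR1. All probe sets that the platform annotation pairs with exactly 1 of these symbols were taken, which gave 12 of 41091 probe sets and 6 of 19775 genes. ARAF has 2 of them, MAP2K2 has 3 and KSR1 has 4, while MAP2K1, MAPK3 and HRAS have 1 each. The annotation pairs no probe set with NRAS, so of the 7 genes listed NRAS was not analysed here.

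Each array is 1 condition. The medium arrays, 5 in number, hold cells transfected with an siRNA against BRAF (siBRAF) or with a nontargeting siRNA (siCont), each kept for 18 h in glutamine-free or in normal medium, and cells with an siRNA against ATF4 (siATF4) in normal medium. The drug arrays, 3 in number, hold siATF4 cells and siCont cells treated with 10 uM vemurafenib, an inhibitor of mutant BRAF, and siCont cells treated with DMSO, its vehicle, for 4 h. All 8 conditions passed through an siRNA transfection, so no array shows untransfected cells, and every result concerns this 1 cell line. The comparisons ask whether the core pathway changes in mRNA when BRAF is knocked down or inhibited.

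The pathway carries growth signals from the membrane to the nucleus. RAS proteins (HRAS and NRAS here) are small GTPases that, when bound to GTP, recruit RAF kinases such as ARAF and BRAF. RAF kinases phosphorylate the kinases MEK1 (MAP2K1) and MEK2 (MAP2K2), which phosphorylate ERK1 (MAPK3) and ERK2, and KSR1 is a scaffold that holds RAF, MEK and ERK together. In melanoma cells with mutant BRAF the signal starts at RAF without need of RAS, and ERK output genes report its strength.

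The 250 bases before the annotated start are printed from RefSeq (GRCh38.p14) for the 3 members the results turn on. These are HRAS, at least 2-fold lower with siBRAF in normal medium, MAP2K1, which fell in the test over all arrays, and MAP2K2, which differed the other way and came closest to that test's threshold among the rest. HRAS lies on the minus strand of chromosome 11 (chr11:532242-535576) and its window is chr11:535577-535826. MAP2K1 lies on the plus strand of chromosome 15 (chr15:66386912-66491544) and its window is chr15:66386662-66386911. MAP2K2 lies on the minus strand of chromosome 19 (chr19:4090321-4124122) and its window is chr19:4124123-4124372. MAP2K1 and MAP2K2 have 2 annotated starts each, and the windows shown are those at the outer end of the gene. Capitals mark each match on either strand of the GC box GGGCGG and of the CCAAT box, and no match overlaps another.
HRAS: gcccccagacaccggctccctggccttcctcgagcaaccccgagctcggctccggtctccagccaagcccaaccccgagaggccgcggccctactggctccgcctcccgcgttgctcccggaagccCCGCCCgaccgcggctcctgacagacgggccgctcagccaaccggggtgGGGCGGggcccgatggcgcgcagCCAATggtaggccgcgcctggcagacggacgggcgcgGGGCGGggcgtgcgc
MAP2K1: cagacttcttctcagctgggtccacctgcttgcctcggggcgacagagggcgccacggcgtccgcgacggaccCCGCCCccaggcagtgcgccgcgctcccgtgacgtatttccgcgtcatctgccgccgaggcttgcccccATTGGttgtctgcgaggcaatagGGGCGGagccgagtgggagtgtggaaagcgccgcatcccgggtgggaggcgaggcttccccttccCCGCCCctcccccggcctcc
MAP2K2: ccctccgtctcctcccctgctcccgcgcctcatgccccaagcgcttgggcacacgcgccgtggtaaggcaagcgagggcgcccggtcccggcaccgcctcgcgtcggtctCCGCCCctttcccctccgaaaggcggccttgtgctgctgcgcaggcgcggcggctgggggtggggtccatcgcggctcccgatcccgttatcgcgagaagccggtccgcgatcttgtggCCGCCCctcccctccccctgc
The windows of HRAS and MAP2K1 hold 3 GC boxes and 1 CCAAT box each, and that of MAP2K2 holds 2 GC boxes and 0 CCAAT boxes. A GC box is found in 42.6% and a CCAAT box in 32.0% of the 35097 RefSeq promoter windows of this length, so both are common. The windows at the inner starts of MAP2K1 and MAP2K2 hold 0 of either box, with a GC content of 53.2% and 59.6%. An exact match of CCGGAAGT, a motif of ETS factors that ERK can activate, is in 3.42% of all windows and in none of those of these 3 genes. Shorter or inexact ETS matches were not counted, and the HRAS window holds ccggaagc, which differs from that motif in its last base. In the printed windows the GC content was 77.2% before HRAS, 71.2% before MAP2K1 and 74.0% before MAP2K2, against a median of 58.0% over all windows. These matches describe the windows and were not set against the expression values.

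The intensities are the authors' RMA values (robust multi-array averaging, which summarises the probes of a probe set) on a linear scale. The medium arrays had median intensities of 14.76 to 15.5 and the drug arrays 36.38 to 36.85, so no value is set against one of the other set. Differences are log2(intensity + 1) differences of 2 arrays, and with 1 array per condition they come without a replicate check or p-value. A probe set or gene entered a comparison where the higher of its 2 values reached that array's median (the 50th percentile), and at least 2-fold apart means an absolute log2 difference of at least 1. No probe set is paired with BRAF, so the knockdown of BRAF itself was not analysed here. In normal medium ATF4 read 533.6 on the siATF4 array and 1814.1 on the siCont array, and in vemurafenib 757.2 and 4548.4. It read 1518.6 with siBRAF in normal medium, 1498.3 with siBRAF and 4360.2 with siCont without glutamine, and 2390.4 in DMSO. The lineage regulators SOX10 and MITF lay above the array median on all 8 arrays, and the pigment cell antigen MLANA lay below it on all 8. Of the other melanocyte markers, S100B and TYR were at or above it on all 8 and PMEL on 3, and DCT has no probe set. TYR was close to the median, at 15.4 to 17.7 on the medium arrays. In bulk RNA, fewer cells carrying a transcript and less of it per cell cannot be told apart.

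**Figure D1:**
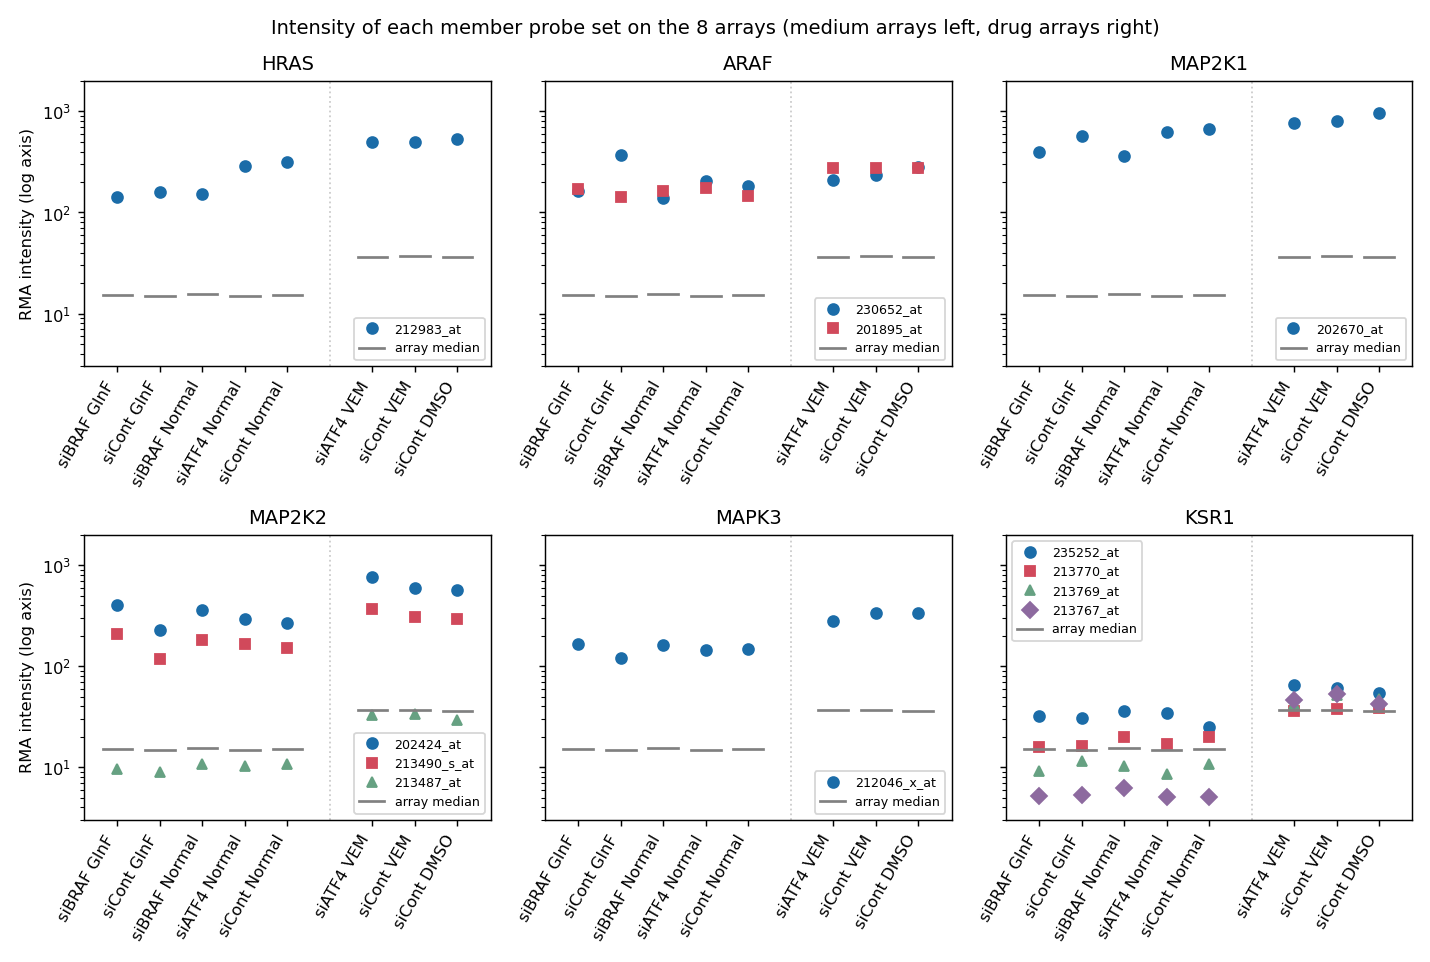
RMA intensity (log axis) of the 12 probe sets of the 6 member genes on each array, with the medium arrays left and the drug arrays right of the dotted line. Grey bars are the array medians; HRAS lies between 142.7 and 160.1 on 3 medium arrays and at 288.3 and 315.9 on the siATF4 and siCont arrays in normal medium.

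HRAS, the RAS gene with a probe set, was 2.07-fold lower with siBRAF than with siCont in normal medium. Its intensity on the medium arrays was 142.7 with siBRAF and 160.1 with siCont in glutamine-free medium, and 152.0 with siBRAF, 288.3 with siATF4 and 315.9 with siCont in normal medium. The 2 arrays without siBRAF and with glutamine were thus high and the other 3 low. Without glutamine the difference between siBRAF and siCont was -0.16, since siCont cells were then low as well. The difference of siCont cells without glutamine from siCont cells in normal medium was -0.98, and that of siBRAF cells was -0.09. The pair in normal medium and the siCont pair across media share 1 array, siCont in normal medium. The siATF4 array, which neither pair uses, differed from that shared array by -0.13.

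On the drug arrays HRAS read 503.7 in siATF4 and 504.1 in siCont cells with vemurafenib, and 538.1 in DMSO. The 3 values lie within 0.1 on the log2 scale, and the difference of vemurafenib from DMSO was -0.09. In normal medium, 13.1% of the probe sets entering had a larger absolute difference with siBRAF than HRAS, and in vemurafenib 66.4% had one.

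ARAF, a RAF kinase and paralog of BRAF, gave opposite signs on its 2 probe sets. Probe set 230652_at read 163.8 with siBRAF and 369.2 with siCont in glutamine-free medium, and 138.3 with siBRAF, 207.1 with siATF4 and 181.7 with siCont in normal medium. The siCont array without glutamine was the high one, and the siBRAF array in normal medium was the lowest. The second probe set, 201895_at, read 169.1, 142.0, 164.4, 174.8 and 147.2 on the same arrays in the same order, a range of 0.3 on the log2 scale. Here the siCont arrays were the lowest in both media.

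With siBRAF, 230652_at differed by -0.39 in normal medium and by -1.17 in glutamine-free medium, where it was 2.25-fold lower. The difference of 201895_at was 0.16 and 0.25 in the same pairs. Glutamine withdrawal in siCont cells went with a difference of 1.02 on 230652_at and of -0.05 on 201895_at, and in siBRAF cells of 0.24 and 0.04. In vemurafenib against DMSO they differed by -0.25 (236.9 against 281.1) and 0.01 (276.7 against 274.1). No single direction for ARAF holds over both probe sets, and where in the transcript each of them lies was not analysed here. The gap between the 3' and 5' actin control probes, which widens in degraded RNA, was 0.28 on the siCont array without glutamine and 0.16 to 0.2 on the other medium arrays, in log2 units. The same gap of the GAPDH probes was 0.13 on that array, within the 0.1 to 0.14 of the other medium arrays. The part of RNA quality in the ARAF difference was not tested.

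MAP2K1, which encodes MEK1, was lower with siBRAF in both media. It read 392.6 with siBRAF and 575.9 with siCont in glutamine-free medium, and 366.0 with siBRAF, 625.5 with siATF4 and 676.4 with siCont in normal medium. Both siBRAF arrays were below all 3 other medium arrays. The differences were -0.88 in normal medium, 1.85-fold lower, and -0.55 in glutamine-free medium, 1.47-fold lower, and neither reached 2-fold. Glutamine withdrawal went with -0.23 in siCont cells and 0.1 in siBRAF cells.

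On the drug arrays MAP2K1 read 769.8 in siATF4 and 802.0 in siCont cells with vemurafenib, and 959.9 in DMSO. Both vemurafenib arrays were thus below the DMSO array, with a difference of -0.26 for the siCont pair, and 28.8% of the probe sets entering had a larger one.

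MAP2K2, which encodes MEK2, was higher with siBRAF in both media. Probe set 202424_at read 399.9 with siBRAF and 228.4 with siCont in glutamine-free medium, and 359.0 with siBRAF, 296.4 with siATF4 and 269.9 with siCont in normal medium. Both siBRAF arrays were above the other medium arrays, so MAP2K1 and MAP2K2 stood in opposite order there. The differences were 0.41 in normal medium and 0.81, or 1.75-fold higher, without glutamine. Probe set 213490_s_at gave 0.25 and 0.81 in the same pairs, with 208.9 and 118.7 without glutamine and 180.1 and 150.9 in normal medium, siBRAF first. The third, 213487_at, lay below the median on all arrays, at 9.0 to 10.8 on the medium and 29.4 to 33.8 on the drug arrays, and entered no comparison.

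In vemurafenib MAP2K2 read 757.3 in siATF4 cells and 600.6 in siCont cells on 202424_at, and 564.5 in DMSO. The siATF4 array was the highest of the 3, with a difference of 0.33 from siCont in vemurafenib, and 213490_s_at gave 0.27. The vemurafenib difference from DMSO was 0.09 and 0.08 on the same probe sets.

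MAPK3, which encodes ERK1, read 164.1 with siBRAF and 119.6 with siCont in glutamine-free medium, and 161.3 with siBRAF, 145.9 with siATF4 and 147.3 with siCont in normal medium. The siBRAF arrays were the highest and the siCont array without glutamine the lowest. The siBRAF difference was 0.45 without glutamine and 0.13 in normal medium, and glutamine withdrawal went with -0.3 in siCont and 0.02 in siBRAF cells. It read 280.7 in siATF4 and 332.8 in siCont cells with vemurafenib, and 333.4 in DMSO, so vemurafenib and DMSO differed by less than 0.01 on the log2 scale. Its only probe set, 212046_x_at, carries a suffix for probes that can match further transcripts.

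KSR1, the scaffold, lay near the array median, where values are close to background. Probe set 235252_at read 32.5 with siBRAF and 30.4 with siCont in glutamine-free medium, and 35.7 with siBRAF, 34.6 with siATF4 and 25 with siCont in normal medium. The siCont array in normal medium was the low one, and both siRNAs in that medium differed from it, by 0.5 for siBRAF and 0.45 for siATF4. Probe set 213770_at, at 15.9 to 19.9 on the medium arrays, gave 0.01 with siBRAF and -0.21 with siATF4 in that medium. Neither 213769_at nor 213767_at reached the median on a medium array, but both did on all drug arrays. They gave 0.15 and 0.3 in vemurafenib against DMSO, and -0.31 and -0.19 with siATF4 in vemurafenib. In the same comparisons 235252_at gave 0.15 and 0.12, and 213770_at gave -0.06 and -0.03, so the siATF4 signs differ between probe sets. On the drug arrays 235252_at read 65.6 in siATF4 and 60.4 in siCont cells with vemurafenib, and 54.5 in DMSO.

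**Figure D2:**
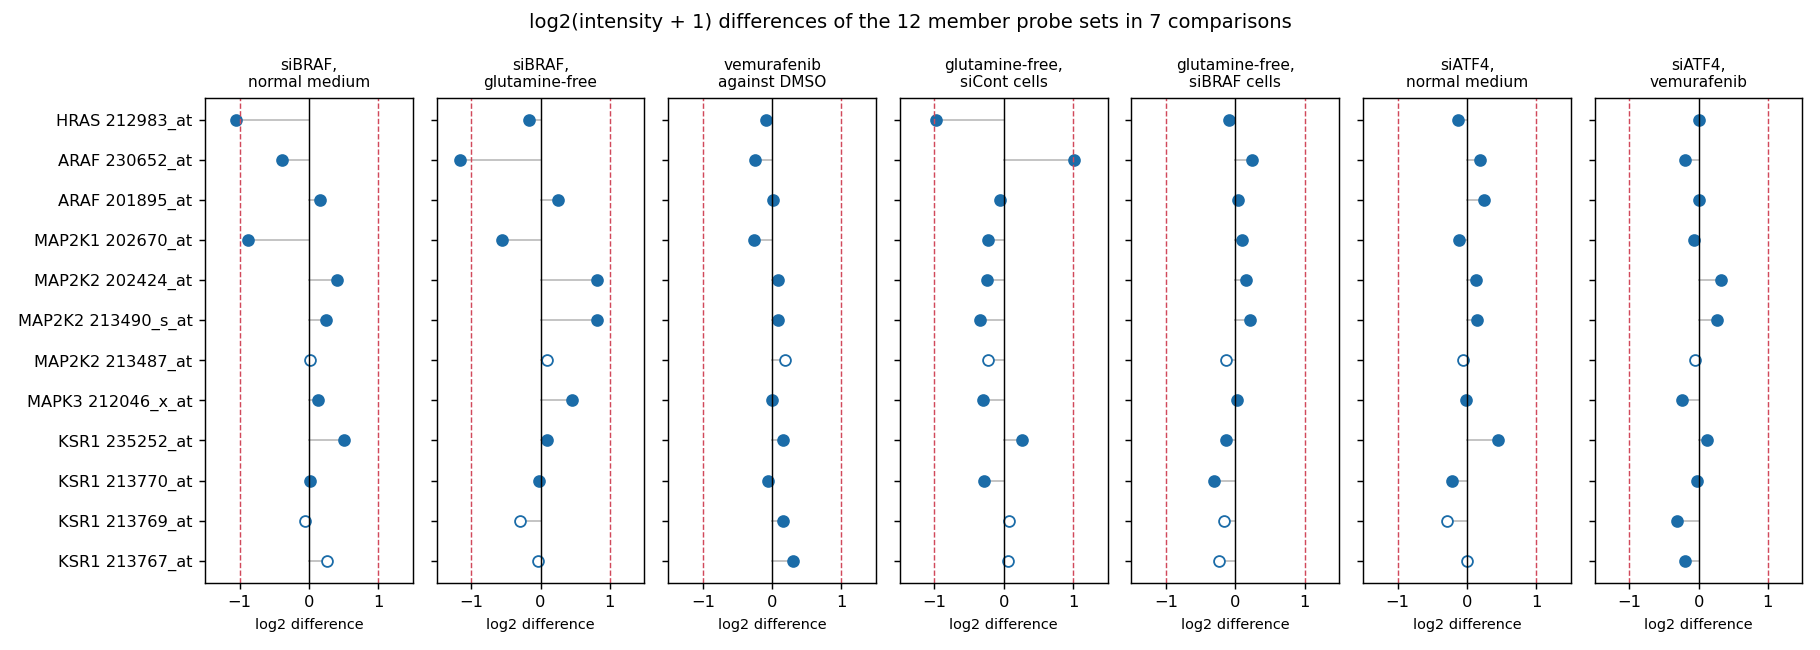
The log2(intensity + 1) difference (x axis) of each of the 12 probe sets in the 7 comparisons, with dashed lines at 2-fold. Open circles are probe sets below the median on the deciding array; points reach 2-fold only for HRAS with siBRAF in normal medium and for ARAF 230652_at with siBRAF and in siCont cells without glutamine.

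The probe set of highest mean log2 intensity on the 8 arrays stood for its gene, and all 6 genes entered every comparison. With siBRAF in normal medium 1 of 6 members was at least 2-fold apart (HRAS, lower), where 14.8% of the 13346 genes tested were at least 2-fold apart. Without glutamine 1 of 6 was (ARAF, lower), where 23.7% of 13496 genes were. These counts are near those backgrounds. The members' median difference was -0.03 without glutamine and -0.13 in normal medium, beside medians of 0.02 and -0.006 over all genes. The median absolute difference of the members was 0.5 and 0.45 in the same order, beside 0.475 and 0.355 over all genes. In both siBRAF pairs together 0 of 6 members kept 1 direction past 2-fold, where 9.88% of 13131 genes did.

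With vemurafenib 0 of 6 members were at least 2-fold apart from DMSO, where 2.78% of 13160 genes were. Their differences ran between -0.26 for MAP2K1 and 0.15 for KSR1 on 235252_at, with a median of -0.05 beside 0.025 over all genes. Glutamine withdrawal left 1 of 6 at least 2-fold apart in siCont cells (ARAF, higher), where 13.0% of 13355 genes were at least 2-fold apart, and 0 of 6 in siBRAF cells, where 0.122% of 13138 were. With siATF4 0 of 6 were at least 2-fold apart, in normal medium (background 0.858%) and in vemurafenib (0.934%).

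**Figure D3:**
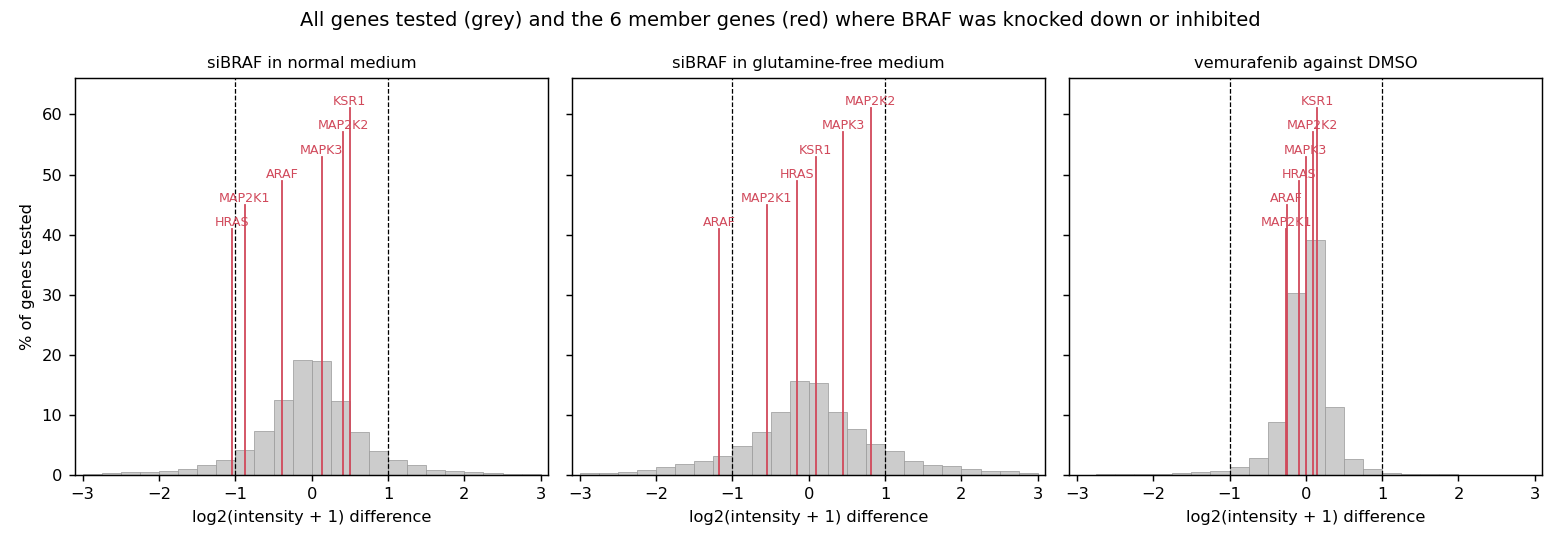
Share of all genes tested (grey bars, % of genes) by log2(intensity + 1) difference where BRAF was knocked down or inhibited, with the 6 members as red lines of staggered height. Genes beyond 3 on the log2 scale (111, 253 and 19 in the 3 panels) are not drawn. The members lie between -1.05 and 0.5, -1.17 and 0.81, and -0.26 and 0.15, with HRAS past 2-fold in normal medium and ARAF past it without glutamine.

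The test that these arrays allow is an additive limma model over all 8 of them, whose terms are the drug set, vemurafenib, siBRAF, siATF4 and medium without glutamine. Its 2 residual degrees of freedom measure how far the siBRAF effect differs between media and the siATF4 effect between sets, not the spread between cultures. The siBRAF term was called for 1 of 6 members, where 23.1% of the 14220 genes tested rose or fell. MAP2K1 fell by 0.72 in log2 units (SE 0.14; adjusted p = 0.0313 in limma). MAP2K2 was estimated at 0.62 (SE 0.16, limma adjusted p = 0.0561), ARAF at -0.8 (limma adjusted p = 0.0667), HRAS at -0.62 (limma adjusted p = 0.135), KSR1 at 0.26 and MAPK3 at 0.25, and none of these passed 0.05.

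The MAP2K1 call did not hold in 5 smaller fits, where its estimate was -0.72, or -0.64 without the siCont array in normal medium. All but that last fit leave the same residual, the siBRAF difference between media, so they are not separate checks of MAP2K1. Its limma adjusted p was 0.16 on the medium arrays alone, 0.163 without the siCont array in normal medium, 0.164 without the siATF4 array in normal medium, and 0.162 without either vemurafenib array. Without the siCont or the siBRAF array in glutamine-free medium the MAP2K1 estimate was -0.87, and without the siBRAF array in normal medium it was -0.55. In these fits the siBRAF term rests on 1 pair of arrays, and only the siATF4 departures are left as residual. Their calls are therefore no check on MAP2K1. Leaving out the DMSO array gave the main fit again (-0.72, limma adjusted p = 0.0312), since the model fits that array exactly. That fit is thus no check either. For glutamine-free medium and for siATF4 limma called 0 of 6 members and 0 of all genes. An unadjusted limma p under 0.05 was reached by 774 and 644 of 14220 genes, near what this cutoff gives by chance. These 0 counts cannot be read as no effect. Glutamine withdrawal left 1733 genes at least 2-fold apart in siCont cells but 16 in siBRAF cells, a disagreement the model takes as residual. ATF4 itself differed by -1.76 in normal medium and -2.59 in vemurafenib, and limma did not call even that gene for the siATF4 term. The vemurafenib effect rests on 1 pair and has no test. Of 10 marker genes of leukocytes, epithelium, endothelium and fibroblasts 5 entered the siBRAF fit, where KRT18, an epithelial keratin, fell by 2.03 (limma adjusted p = 0.00299) and LUM, a fibroblast proteoglycan, rose by 3.51 (limma adjusted p = 0.0222). The summed intensity of the 10 was 930.9 and 1017.4 on the siBRAF arrays and 2201.2 to 2593.2 on the other medium arrays, and without KRT18 and LUM it was 96.4 to 113.1 on all 5. Of the 10, PTPRC, CD14, EPCAM, CDH1 and CDH5 were below the array median on all 8 arrays, CD3E, PECAM1, DCN and KRT18 were at or above it on all 8, and LUM was on 7. On the medium arrays CD3E, a T cell gene, read 21.0 to 31.3, the endothelial PECAM1 24.7 to 32.2 and the fibroblast gene DCN 25.8 to 36.8, and none of these was called for siBRAF. Of 5 melanocyte markers entering, S100B rose by 2.89 (limma adjusted p = 0.0152), and MITF, SOX10, PMEL and TYR were not called. All 8 arrays are labelled as the cell line A375, and whether cells of another type added to the member values was not tested.

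The other genes of the pathway were read from 5 lists that run from RAS regulators to ERK-activated kinases, with 66 genes listed, 55 with a probe set and 50 entering. With vemurafenib 0 of 50 were at least 2-fold apart from DMSO (median -0.02), where 2.78% of all genes were. With siBRAF 6 were higher and 2 lower without glutamine (median 0.06), and 4 were higher and 2 lower in normal medium (median 0). The background was 23.7% of all genes without glutamine and 14.8% in normal medium, and neither count is above it. The higher genes include KSR2 in both media, which entered these pairs only through the siBRAF arrays.

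The genes at least 2-fold higher in both siBRAF pairs were MRAS, RRAS, GAB1 and KSR2. MRAS and RRAS are RAS family GTPases, GAB1 is an adaptor below receptor kinases and KSR2 is the paralog of KSR1. RRAS read 342.6 with siBRAF against 61.4 with siCont without glutamine, and 341.6 against 128.7 in normal medium, and rose by 1.91 in the additive model (SE 0.28, limma adjusted p = 0.0157). MRAS read 136.9 against 45.6 and 172.6 against 44.3 in the same pairs and rose by 1.77 (SE 0.16, limma adjusted p = 0.00705). GAB1 read 66.7 against 18.3 and 70.2 against 28.3 and rose by 1.53 (limma adjusted p = 0.00988). KSR2 read 30.1 against 9.7 and 23.8 against 8.4, so its siCont values lay below the array median and it entered only through the siBRAF arrays. Its difference is therefore given as a description. RRAS, MRAS and GAB1 thus stood at higher values on both siBRAF arrays, while HRAS, ARAF and KSR1 gave no such pair of differences.

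In the additive model 12.2% of all genes rose with siBRAF and 10.9% fell. By role, 2 of 8 adaptors and exchange factors rose and 0 fell, and of the GTPase activators, which switch RAS off, 2 of 3 fell. These were RASA2, at -0.74 in normal and -0.84 in glutamine-free medium, and RASA3, at -0.81 and -2.08, with limma adjusted p-values of 0.0277 and 0.0497. The third, RASAL2, gave 0.62 in normal and -1.66 in glutamine-free medium and was not called (-0.42, limma adjusted p = 0.631). Vemurafenib went with -0.69 for RASA2, -0.98 for RASA3 and -0.17 for RASAL2. Of 12 other RAS, MEK and MAP kinase family genes 2 rose and 0 fell. Of 20 scaffolds and regulators 3 rose and 1 fell. KSR2 is 1 of the 3, and its siCont values on the medium arrays lay below the array median, so it is counted as a description only. Of 7 ERK-activated kinases 0 rose and 1 fell. That gene was RPS6KA1, a ribosomal S6 kinase that ERK activates, which fell by 0.89 (SE 0.19, limma adjusted p = 0.0361).

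ERK output was read from 10 genes of a MAPK activity signature. At least 2-fold lower were 7 of 10 with siBRAF in normal medium (median -1.72), 8 of 10 without glutamine (median -2.41) and 8 of 10 with vemurafenib (median -2.61), and 0 were higher. Of all genes tested, 7.61%, 10.8% and 1.92% were at least 2-fold lower in the same 3 comparisons. Glutamine withdrawal itself left 3 of 10 at least 2-fold higher and 1 lower in siCont cells (median 0.36). There 5.76% of all genes were higher and 7.22% lower. In siBRAF cells 0 of 10 were at least 2-fold apart (median -0.02), where 0.122% of all genes were. The larger fall without glutamine thus went with changed siCont values, while the siBRAF arrays differed little between media. In the additive model 7 of 10 fell with siBRAF, among them ETV5, an ETS factor, which read 28.3 against 332.8 without glutamine and 33.9 against 327.4 in normal medium. The phosphatase DUSP6, which switches ERK off, read 15 in vemurafenib against 1733.3 in DMSO, and its vemurafenib value was below the array median. Of the others, SPRY2 and SPRY4, which restrain receptor signalling, gave -4.41 and -2.34 with vemurafenib, the phosphatase DUSP4 gave -3.74, the cyclin CCND1 -2.18, the receptor EPHA2 -3.11 and PHLDA1 -2.18. ETV4, a relative of ETV5, gave -3.73 and -3.47 with siBRAF without and with glutamine, and -0.98 with vemurafenib. The members' medians in the same 3 comparisons were -0.13, -0.03 and -0.05. The difference between the 2 sets of genes was not tested.

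**Figure D4:**
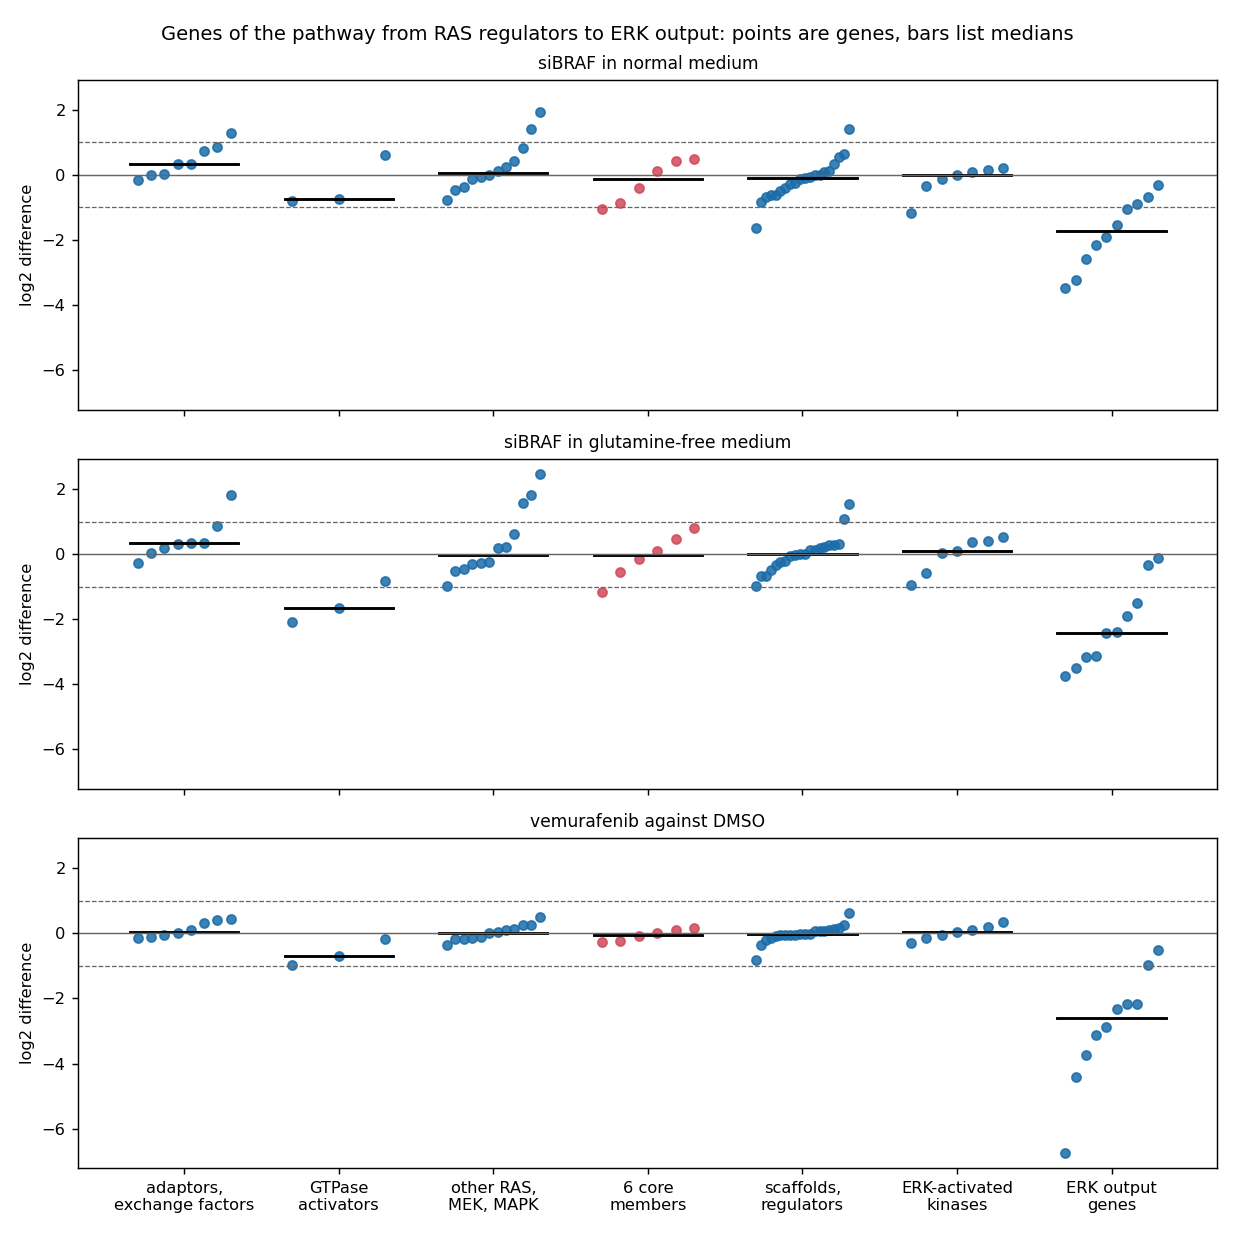
The log2(intensity + 1) difference of each gene entering (points) by list, with the list median as a black bar, for siBRAF in both media and for vemurafenib against DMSO. The core members (red) lie between -1.17 and 0.81, while the ERK output genes have medians of -1.72, -2.41 and -2.61.

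Pattern likeness was taken for ARAF and HRAS, the members at least 2-fold apart in some comparison, as Pearson's r over the 8 arrays of log2 values centred within each set. It describes 8 points that share their arrays, and 11504 genes at or above the median on all arrays were searched. Most like HRAS were NDUFAF6 (r = 0.999), PPIA (0.995) and PHB2 (0.994), and 212 genes had r above 0.95. NDUFAF6 read 207.8 and 224.6 without glutamine, and 215.1, 296.5 and 312.8 in normal medium, with siBRAF before siATF4 and siCont. It thus has the same 3 low arrays as HRAS over a smaller range. Most like ARAF 230652_at were POC5 (0.997), ATG5 (0.996) and AGFG1 (0.991), and 187 genes had r above 0.95. POC5 read 94.3 with siBRAF and 209.4 with siCont without glutamine, and 80.6 with siBRAF and 107.0 with siCont in normal medium, so it too was highest on the siCont array without glutamine.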

How the data were processed

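RNA of the 8 conditions was measured on Affymetrix arrays from biotin-labelled cRNA. The authors deposited linear intensities, which they made with RMA per the submitters' processing notes; its version is not given in the sources used here. Probe sets with exactly 1 symbol in the platform annotation were used, and 41037 of 41091 were matched to RefSeq symbols by gene ID. From the deposited intensities, log2(intensity + 1) differences were computed between arrays of the same set in Python 3.11.15 with pandas 2.3.3, and the additive model was fitted with limma 3.58.1 in R 4.3.3 (intensity trend, Benjamini-Hochberg over all genes, threshold 0.05). Its script was tested on simulated data. Differences on this scale understate the change of low genes. The number of arrays, 1 per condition, limits the precision.

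Named were the members, list genes past 2-fold in 1 direction in both siBRAF pairs, or past it with vemurafenib, and the 3 genes most like a member that was 2-fold apart in any comparison. RASA2, RASA3, RASAL2 and RPS6KA1 were named after their values were seen. The members and lists were chosen with earlier results of these data known. Alternatives were an added constant of 16, quantile normalization within each set, no filter or the 75th percentile, other representing probe sets, and fewer arrays. Cell type lists held 7 melanocyte and 10 other genes.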

Additional observations from a re-analysis of the deposited data

Results flagged for a closer look

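For 5 results the direction was opposite in 2 backgrounds, each seen on 1 array per condition, and the difference was not tested. Glutamine withdrawal gave opposite signs in siBRAF and siCont cells for MAP2K1 (0.1 and -0.23, a difference of 0.33), MAP2K2 (0.16 and -0.24, 0.4), MAPK3 (0.02 and -0.3, 0.32) and KSR1 (-0.13 and 0.27, -0.4). The KSR1 values are those of 235252_at, and 213770_at gave -0.31 and -0.28, with the same sign. siATF4 gave -0.19 in vemurafenib and 0.19 in normal medium for ARAF on 230652_at, a difference of -0.38, while 201895_at gave 0 and 0.25. All these effects were below 2-fold.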

How the results depend on the processing

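Of 275 values of a member in a pair of arrays under an alternative, 267 stayed on the same side of 2-fold and 7 were counted as changing sign after rounding. Among the latter is HRAS with siATF4 in vemurafenib, which was just below 0 (503.7 against 504.1) and became -0.02, so its sign held. With an added constant of 16, 0 members were at least 2-fold apart with siBRAF in normal medium (HRAS at -0.98) and 0 in siCont cells without glutamine (ARAF at 0.96). The mean of all probe sets, and the other probe set of ARAF (chosen after seeing the data), also left 0 members with siBRAF without glutamine and 0 in siCont cells without glutamine. ARAF was at -0.46 and 0.48 with the mean, and with the other probe set its signs turned, to 0.25 and -0.05. Its 2 probe sets disagree by themselves. Quantile normalization put HRAS in siCont cells without glutamine at -1.01 and ARAF at 0.93. Genes at least 2-fold apart without glutamine in siBRAF cells numbered 16, and 9 with the constant of 16 and 10 at the 75th percentile. With siATF4 in normal medium 113 became 55, 68 and, with the mean, 71.

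In the additive model, quantile normalization and the 75th percentile each called 2 members for siBRAF, adding MAP2K2 (limma adjusted p = 0.0461 and 0.046), and the medium arrays alone called 0 members and 706 of 14220 genes, with 1 residual degree of freedom. Leaving out 1 array gave 0 to 3 members and 684 to 6897 genes for siBRAF, and 0 to 2 members and 0 to 5068 genes for glutamine-free medium. For siBRAF the 3 highest counts come from fits without a siBRAF array or without the siCont array of glutamine-free medium, where only the siATF4 departures are left as residual. HRAS was then called at -1.02 (limma adjusted p = 0.00277 without the siCont and 0.00275 without the siBRAF array of glutamine-free medium). ARAF was called at -1.17 (limma adjusted p = 0.00332) without the siBRAF array in normal medium. No paired analysis was possible because each condition has 1 array. KSR1 and 213487_at of MAP2K2 lie near or below the array median, which limits their differences.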
